A study of Rattus norvegicus with 9 samples.

Results

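The genes described are those of the rat major histocompatibility complex (MHC), named RT1 in this species, together with 14 genes that supply, load or regulate MHC molecules. A row of the gene table was taken when its symbol began with RT1- or was B2m, Cd74, Tap1, Tap2, Tapbp, Tapbpl, Psmb8, Psmb9, Psmb10, Psme1, Ciita, Nlrc5, Erap1 or Calhm6, and when it stood above 0 in at least 3 libraries. Of 36267 features in the table, 45 had such a symbol and 41 met the rule, 27 RT1 genes and the 14 others. RT1-M6-2 was at 0 in every library, RT1-M5 was above 0 in 1, and RT1-Db2 and RT1-M4 were above 0 in 2. RT1-M2 was just inside the rule with 3 libraries.

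Kidneys of 9 rats weighing 180 to 200 g were sequenced, 3 rats in each of 3 groups. Icariin rats were given icariin, a flavonoid glycoside of Epimedium, at 100 mg/kg by mouth on 3 days before contrast injury. Their injury protocol was that of the CIAKI (contrast-induced acute kidney injury) group, so both groups received furosemide at 200 mg/kg, 6 h of dehydration and the iodinated contrast medium iopromide at 370 mg I/mL and 15 mL/kg into the tail vein. Control rats had no treatment. No group received icariin without contrast, and the labels used here name no strain, sex or time from contrast to tissue collection.

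MHC class I molecules are a heavy chain paired with beta-2 microglobulin (B2m), and nearly all nucleated cells use them to show peptides made by the proteasome to CD8 T cells. MHC class II molecules are alpha and beta chain pairs held by the invariant chain Cd74 until a peptide is loaded, and in kidney they are known mainly from dendritic cells and macrophages, with lower and inducible expression in other cells. The coactivator Ciita drives class II genes and Nlrc5 drives class I genes, both through promoter elements called the X and Y boxes, while interferons act on many genes of the peptide supply through other elements.

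Values are in CPM, that is, read counts scaled to one common library total. A level of 1 CPM was worth 64.4 reads in the shallowest library and 90.4 reads in the deepest. Proximal tubule markers, which check the labelled tissue, summed to 22613 to 24482 CPM in icariin kidneys, 10179 to 13942 CPM in CIAKI kidneys and 22571 to 26453 CPM in control kidneys. Havcr1, the gene of the tubular injury marker KIM-1, stood at 1.35 to 2.63 CPM in icariin kidneys, 229.5 to 742 CPM in CIAKI kidneys and 0.529 to 1.25 CPM in control kidneys. Its log2 fold change was 7.76 in CIAKI against control (limma adjusted p = 8.76e-06) and -7.06 in icariin against CIAKI (limma adjusted p = 1.24e-05). Many RT1 genes, above all the class I heavy chains, are close copies of one another, and the handling of reads shared between copies is not stated in the labels or headers used here, so single RT1 rows are uncertain and sums over rows are given beside them.

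The promoters of the genes on which the results turn are shown because Ciita and Nlrc5, which are among these genes, act on promoters. RefSeq windows of 300 bases (250 before the transcription start and 50 after it, build GRCr8) were matched by symbol for 35 of the 41 genes. In the first 5, capitals mark the X box core (CCTAGCAAC, up to 1 mismatch) and the Y box core (CCAAT), on either strand. They are RT1-Da at chr20:4515165-4515464 (plus strand), RT1-DOb at chr20:4627474-4627773 (minus strand), RT1-Db1 at chr20:4560113-4560412 (minus strand), RT1-Ba at chr20:4576807-4577106 (plus strand) and RT1-DMa at chr20:4712286-4712585 (minus strand), the one tested class II gene that was not called.
RT1-Da: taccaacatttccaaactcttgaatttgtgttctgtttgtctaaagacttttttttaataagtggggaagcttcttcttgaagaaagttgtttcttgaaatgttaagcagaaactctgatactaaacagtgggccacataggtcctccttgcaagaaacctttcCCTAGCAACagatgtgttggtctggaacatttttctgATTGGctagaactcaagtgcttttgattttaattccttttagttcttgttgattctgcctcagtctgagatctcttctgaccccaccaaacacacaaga
RT1-DOb: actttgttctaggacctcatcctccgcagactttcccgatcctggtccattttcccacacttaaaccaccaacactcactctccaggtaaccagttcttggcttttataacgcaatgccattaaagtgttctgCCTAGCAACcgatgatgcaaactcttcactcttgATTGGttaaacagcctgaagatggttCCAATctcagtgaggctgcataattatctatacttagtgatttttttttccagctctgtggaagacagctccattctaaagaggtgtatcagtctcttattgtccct
RT1-Db1: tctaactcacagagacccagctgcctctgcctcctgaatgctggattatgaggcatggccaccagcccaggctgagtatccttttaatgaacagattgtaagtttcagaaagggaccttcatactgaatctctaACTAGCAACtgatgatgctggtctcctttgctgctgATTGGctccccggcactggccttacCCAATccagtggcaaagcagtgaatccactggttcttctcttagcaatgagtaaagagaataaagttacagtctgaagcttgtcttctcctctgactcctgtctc
RT1-Ba: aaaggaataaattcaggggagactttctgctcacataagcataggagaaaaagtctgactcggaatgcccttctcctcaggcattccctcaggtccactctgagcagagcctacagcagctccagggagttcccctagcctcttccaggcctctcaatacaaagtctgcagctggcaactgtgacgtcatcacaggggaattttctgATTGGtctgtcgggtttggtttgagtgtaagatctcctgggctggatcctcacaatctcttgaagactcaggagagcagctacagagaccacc
RT1-DMa: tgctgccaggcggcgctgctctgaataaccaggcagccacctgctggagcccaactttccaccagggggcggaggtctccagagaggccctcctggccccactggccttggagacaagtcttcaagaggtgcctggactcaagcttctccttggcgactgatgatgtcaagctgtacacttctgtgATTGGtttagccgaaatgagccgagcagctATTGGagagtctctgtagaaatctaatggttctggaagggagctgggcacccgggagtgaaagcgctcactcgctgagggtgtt
Between the X box core and the Y box core lay 28 bases in RT1-Da, 25 in RT1-DOb and 27 in RT1-Db1, and no X box match within 1 mismatch lay in the windows of RT1-Ba, RT1-Bb, RT1-DOa or RT1-DMa. The mismatch limit decides this. Before the Y box core, the RT1-Ba window reads gctggcaac and the RT1-DMa window cttggcgac, each with more than 1 mismatch. A window without a match is therefore not shown to lack an X box. RT1-Ba and RT1-Bb were called in the same direction as RT1-Da, RT1-DOb and RT1-Db1. RT1-Ha also held a match, with 28 bases before its Y box core, but it was too low for the test. Across class II genes, 8 of 8 windows held a Y box core, against 37.5% of all 33469 promoters, and 4 of 8 held an X box core, against 8.21%. Both were found in 4 of 8 class II windows, 3 of 16 class I windows and 3.01% of all promoters. The class I matches lay farther apart, with 141 bases between them in RT1-CE4, 117 in RT1-CE5 and 174 in RT1-T24-1. In RT1-CE4 and RT1-CE5 the X box match was also on the opposite strand from that of the class II genes. A match is a description of these letters and not a site.

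Psmb8 (chr20:4656982-4657281, minus strand) and Tapbp (chr20:4967828-4968127, minus strand) are shown as genes of the class I peptide supply that moved in opposite directions. Here capitals mark the gamma-activated site TTCNNNGAA and the interferon-stimulated response element core (GAAA, any 2 bases, GAAA), on either strand.
Psmb8: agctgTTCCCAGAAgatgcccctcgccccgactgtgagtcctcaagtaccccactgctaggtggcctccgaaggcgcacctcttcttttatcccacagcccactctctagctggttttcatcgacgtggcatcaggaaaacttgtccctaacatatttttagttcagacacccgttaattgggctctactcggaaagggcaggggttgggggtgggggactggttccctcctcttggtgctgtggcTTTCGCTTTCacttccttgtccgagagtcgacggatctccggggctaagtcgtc
Tapbp: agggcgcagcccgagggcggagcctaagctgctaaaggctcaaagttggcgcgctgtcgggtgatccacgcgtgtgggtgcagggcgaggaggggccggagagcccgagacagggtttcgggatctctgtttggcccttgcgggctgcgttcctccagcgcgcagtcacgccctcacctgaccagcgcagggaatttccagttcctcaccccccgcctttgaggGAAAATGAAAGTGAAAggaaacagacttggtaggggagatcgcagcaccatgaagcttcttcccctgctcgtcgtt
The response element core was found in both, where the Tapbp window holds 2 overlapping copies, and in 5 of 8 windows of the peptide supply genes against 3.92% of all promoters. The gamma-activated site was found in Psmb8 and in 8.87% of all promoters. The NF-kappaB motif GGGANTTCC was found in 1 of 8 class II windows, in 0 of 8 peptide supply windows and in 1.64% of all promoters. These counts hold for that exact pattern only. The Tapbp window holds gggaatttcc, which has an extra base against the pattern and was not counted.

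In CIAKI kidneys 6 of 7 tested class II genes, Cd74 and both regulators were lower than in control kidneys, while the classical class I heavy chains RT1-A1 and RT1-A2 and the loading factor Tapbp were higher. Of the 41 genes, 36 passed the filter of 1 CPM in at least 3 libraries and were tested with limma on log2(CPM + 1), on which scale all log2 fold changes are given, with calls at an adjusted p below 0.05. CIAKI against control called 16 of the 36, or 44.4%, against 41.3% of all 16731 features tested. By direction, 3 genes were called higher (20.8% of all features were) and 13 lower (20.5% of all features were). The overall share was therefore near the background and is not a result about these genes. The median log2 fold change was -0.23 over the 36 genes and -0.0027 over all features.

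Icariin kidneys had higher levels of the same 6 class II genes, Cd74 and Ciita than CIAKI kidneys, and lower levels of RT1-A1, Tapbp and Psmb10. Icariin against CIAKI called 15 of 36 genes, or 41.7%, against 39.4% of all features. Of these, 12 were higher (19.2% of all features were) and 3 lower (20.2% of all features were). The median log2 fold change was 0.32 over the genes and 0.017 over all features. Both comparisons use the same CIAKI libraries, so opposite signs in them are not independent of each other.

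None of the 36 genes was called between icariin and control kidneys by limma, by edgeR or by DESeq2, and 0 had an unadjusted limma p below 0.05. Across all features that comparison called 0.628%, with 0.4% higher and 0.227% lower. The median log2 fold change was -0.07 over the genes. The icariin and control kidneys did not overlap for 4 of the 36 genes (RT1-A2, RT1-A1, Psmb9 and Tap2), against 19.3% of all features, so this is not a result about these genes. The 95% intervals still allow differences: that of RT1-Da ran from -0.56 to 0.35 and that of Psmb9 from -0.69 to 0.04 on the log2 scale.

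**Figure D1:**
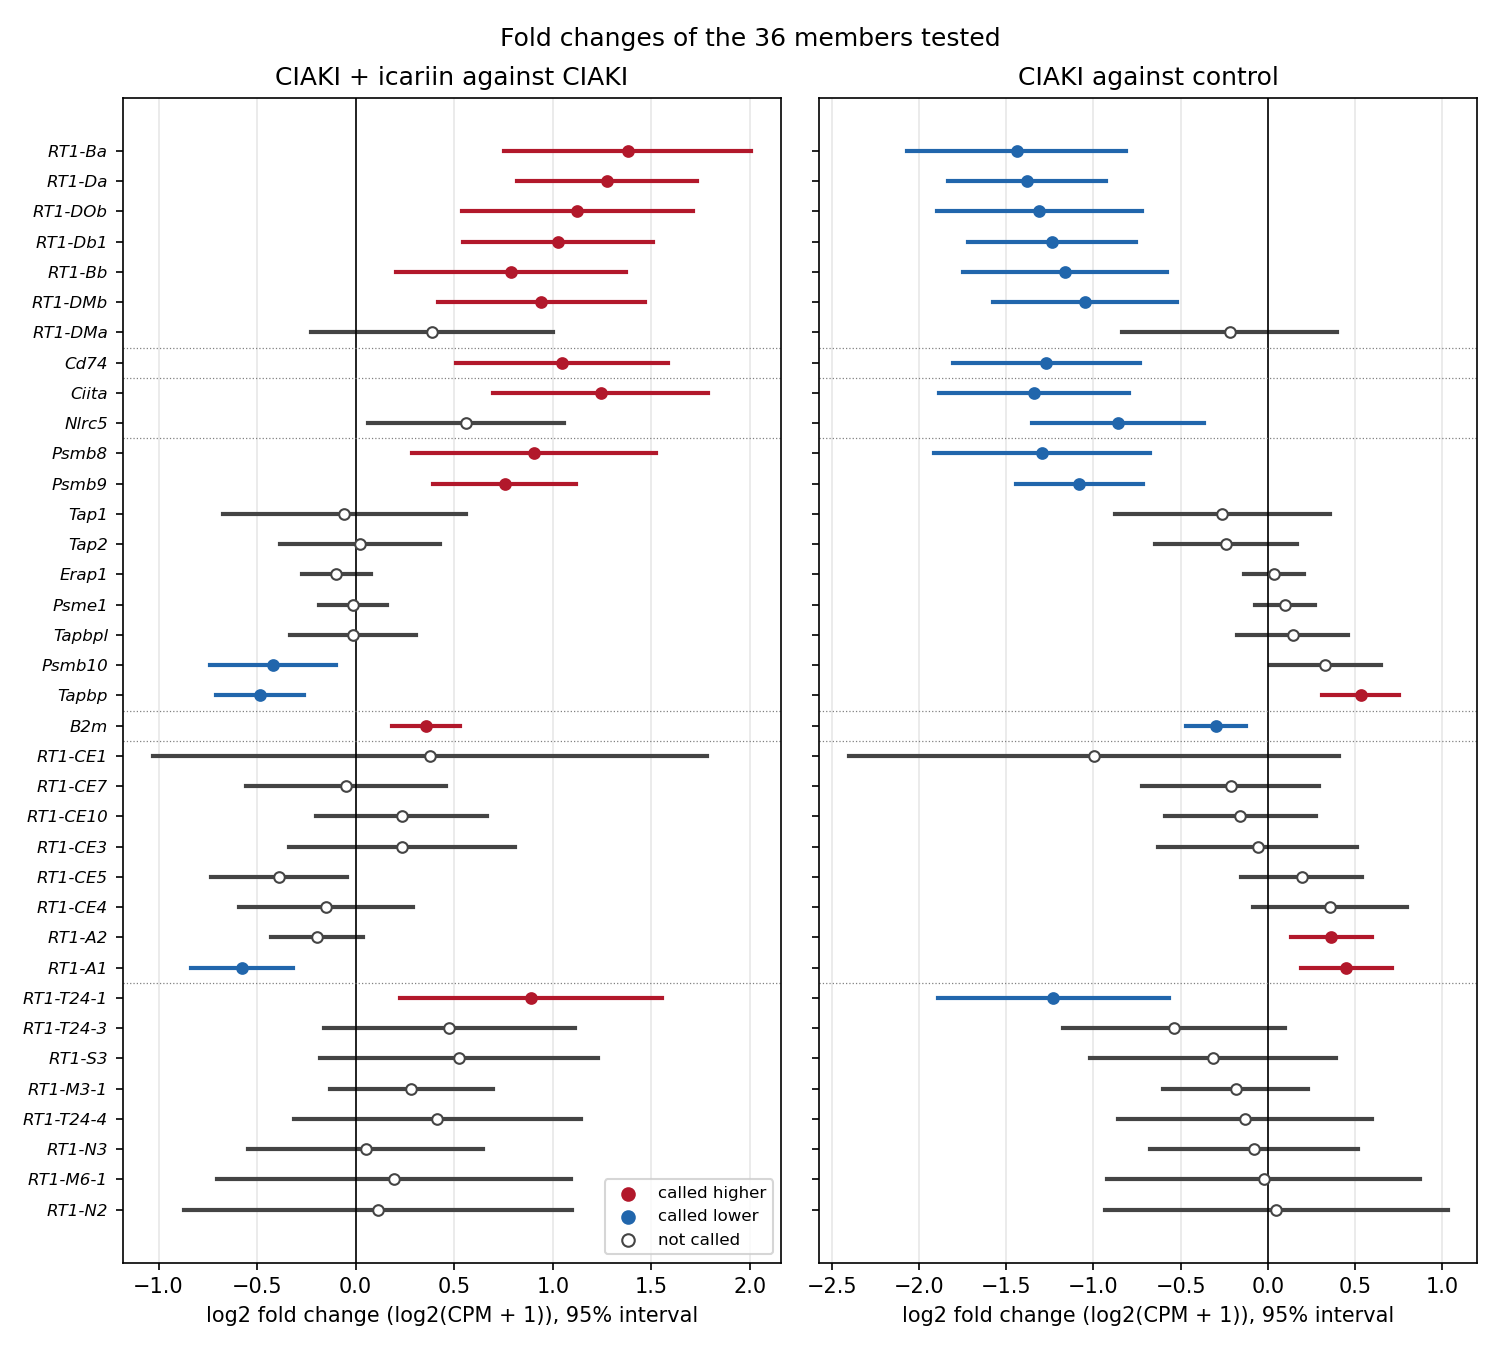
Log2 fold changes on the log2(CPM + 1) scale with 95% intervals of the 36 genes tested, icariin against CIAKI on the left and CIAKI against control on the right, with dotted lines between roles. Filled red points were called higher, filled blue points lower and open points were not called. The class II genes, Cd74 and Ciita lie right of 0 on the left and left of 0 on the right, and RT1-DMa is the open point among the class II genes.

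Of 7 class II chain genes tested, 6 fell in CIAKI against control, against 20.5% of all features, with -1.24 as the median log2 fold change over all 7. In icariin against CIAKI 6 rose, against 19.2% of all features, with 1.03 as the median. In bulk tissue, fewer cells of a type and less RNA per cell cannot be told apart. RT1-Da, the alpha chain of the RT1-D molecule (ENSRNOG00000032844), stood at 89.0, 142 and 101 CPM in icariin kidneys, 45.5, 54.8 and 34.6 CPM in CIAKI kidneys and 101, 124 and 127 CPM in control kidneys. Every CIAKI kidney was below every other kidney, and the icariin and control kidneys overlapped. Its log2 fold change was -1.38 ± 0.20 (SE) in CIAKI against control (limma adjusted p = 0.000872) and 1.28 ± 0.20 in icariin against CIAKI (limma adjusted p = 0.00145). RT1-Db1, its beta chain partner, stood at 23.3, 38.0 and 25.6 CPM in icariin kidneys, 14.7, 16.3 and 9.93 CPM in CIAKI kidneys and 28.9, 35.6 and 34.6 CPM in control kidneys. The same order held, with log2 fold changes of -1.24 (adjusted p = 0.00194) and 1.03 (adjusted p = 0.00516).

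The RT1-B molecule is the other classical class II pair. Its alpha chain RT1-Ba stood at 25.3, 40.2 and 17.1 CPM in icariin kidneys, 10.8, 11.0 and 6.87 CPM in CIAKI kidneys and 30.3, 24.6 and 26.7 CPM in control kidneys. Its beta chain RT1-Bb stood at 11.0, 17.2 and 13.0 CPM in icariin kidneys, 7.97, 9.54 and 5.27 CPM in CIAKI kidneys and 12.7, 19.6 and 22.6 CPM in control kidneys. No CIAKI kidney overlapped either other group for either chain. RT1-Ba had log2 fold changes of -1.44 in CIAKI against control (adjusted p = 0.00341) and 1.38 in icariin against CIAKI (adjusted p = 0.00451), and RT1-Bb had -1.16 (adjusted p = 0.00671) and 0.79 (adjusted p = 0.0378). The icariin call of RT1-Bb was lost in 6 of 20 alternatives, among them leaving out CIAKI replicate 1 or 3, icariin replicate 2 or 3 or control replicate 2, with an adjusted p of up to 0.125.

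Among the genes that edit or regulate peptide loading, RT1-DMb and RT1-DOb moved with the classical chains and RT1-DMa was not called. RT1-DMb, the beta chain of the DM exchange factor, stood at 15.4, 18.1 and 13.4 CPM in icariin kidneys, 7.64, 11.3 and 4.99 CPM in CIAKI kidneys and 17.0, 15.3 and 18.1 CPM in control kidneys. RT1-DOb, the beta chain of the DM inhibitor DO, stood at 2.83, 4.46 and 4.42 CPM in icariin kidneys, 1.33, 1.58 and 0.823 CPM in CIAKI kidneys and 3.23, 3.98 and 6.92 CPM in control kidneys. CIAKI kidneys were lowest for both without overlap. The log2 fold changes were -1.05 and 0.94 for RT1-DMb (adjusted p = 0.00673 in CIAKI against control and 0.0117 in icariin against CIAKI) and -1.31 and 1.12 for RT1-DOb (adjusted p = 0.00391 and 0.00861 in the same order).

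RT1-DMa, the alpha chain that pairs with RT1-DMb, stood at 8.98, 14.8 and 7.06 CPM in icariin kidneys, 8.13, 9.30 and 5.08 CPM in CIAKI kidneys and 7.36, 9.05 and 9.75 CPM in control kidneys. All 3 groups overlapped. Its log2 fold change was -0.22 in CIAKI against control, with a 95% interval from -0.83 to 0.39, and 0.38 in icariin against CIAKI, from -0.23 to 1.00, so a change as large as that of RT1-DMb lies outside the first interval and inside the second. Whether RT1-DMa and RT1-DMb differ in response was not tested. The other class II genes were too low for the test: RT1-DOa, the alpha chain of DO, ran from 0.454 to 1.73 CPM in icariin kidneys, 0.186 to 0.481 CPM in CIAKI kidneys and 0.431 to 1.33 CPM in control kidneys, and RT1-Ha did not exceed 0.106 CPM.

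Cd74, the invariant chain (ENSRNOG00000018735), stood at 283, 407 and 256 CPM in icariin kidneys, 187, 167 and 106 CPM in CIAKI kidneys and 300.3, 365 and 430 CPM in control kidneys. CIAKI kidneys were lowest without overlap. Its log2 fold change was -1.27 ± 0.24 (SE) in CIAKI against control (adjusted p = 0.00296) and 1.04 ± 0.24 in icariin against CIAKI (adjusted p = 0.00808). A sum over the 10 class II rows does not depend on how reads were split among those rows, if each shared read was counted once. Whether it was is not stated. The summed level was 177, 277 and 181 CPM in icariin kidneys, 96.5, 114 and 67.7 CPM in CIAKI kidneys and 202, 232 and 247 CPM in control kidneys. The CIAKI sum was 0.409 of the control mean, and 0.362 to 0.464 of it when any 1 library was left out. The ratio of the class II sum to Cd74 was 0.625 to 0.709 in icariin, 0.517 to 0.684 in CIAKI and 0.574 to 0.672 in control kidneys, so chains and invariant chain kept overlapping proportions.

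**Figure D2:**
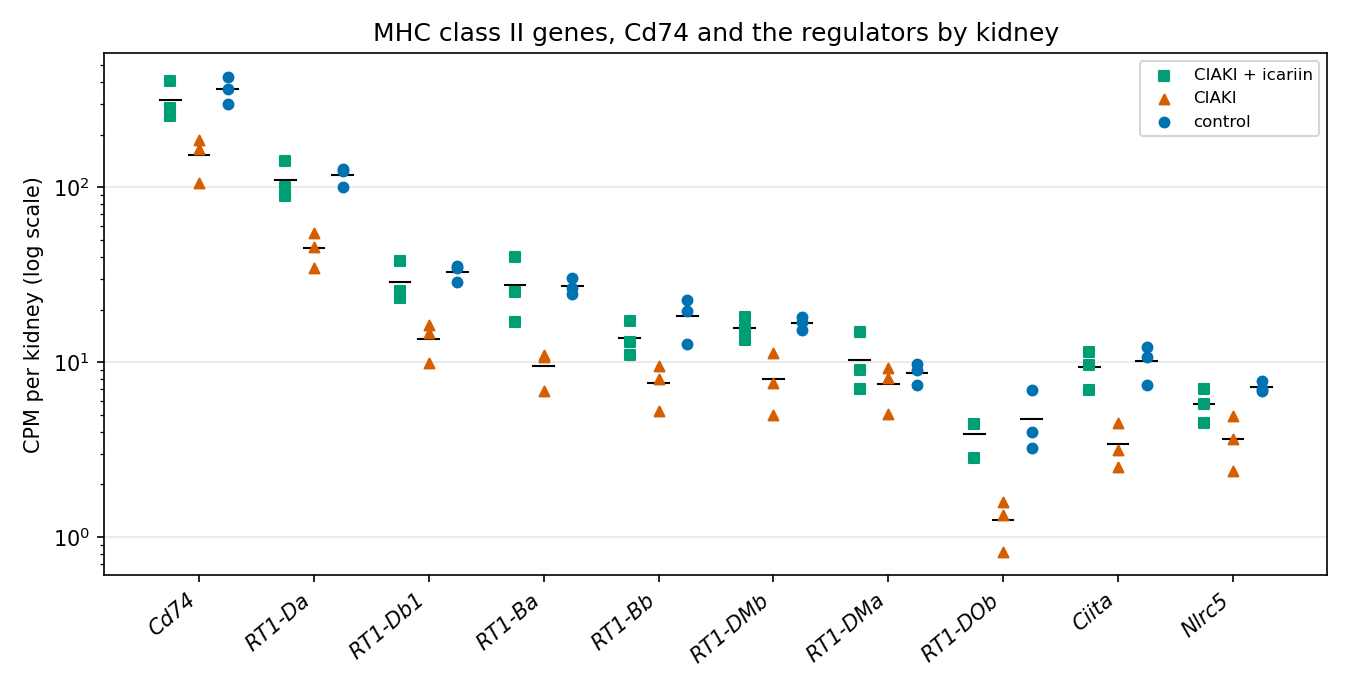
CPM (log axis) of the class II genes, Cd74 and the regulators Ciita and Nlrc5 in each kidney, icariin as green squares, CIAKI as orange triangles and control as blue circles, with bars at the group means. The CIAKI triangles lie below the other groups for every gene drawn except RT1-DMa, where the groups overlap, and Nlrc5, where CIAKI and icariin kidneys overlap.

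Both regulators fell in CIAKI kidneys. Ciita, the class II coactivator (ENSRNOG00000002659), stood at 9.65, 11.5 and 6.97 CPM in icariin kidneys, 2.51, 4.49 and 3.15 CPM in CIAKI kidneys and 12.2, 7.42 and 10.7 CPM in control kidneys. CIAKI kidneys did not overlap the others, with log2 fold changes of -1.34 in CIAKI against control (adjusted p = 0.00242) and 1.24 in icariin against CIAKI (adjusted p = 0.00377). Nlrc5, the class I coactivator, stood at 7.003, 5.77 and 4.49 CPM in icariin kidneys, 4.93, 3.64 and 2.38 CPM in CIAKI kidneys and 7.85, 7.02 and 6.82 CPM in control kidneys. It fell by 0.86 in CIAKI against control (adjusted p = 0.0125), while icariin and CIAKI kidneys overlapped and the log2 fold change of 0.56 was not called (adjusted p = 0.0703).

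Transcription factors of MHC genes moved in both directions. Of 14 listed transcription factors of MHC genes, 5 rose and 1 fell in CIAKI against control (median 0.18 on the log2 scale). Among all features 20.8% rose and 20.5% fell, so the share called was near the background and is not a result about this list. Rfx5, a subunit of the X box binding complex, rose by 0.51 (adjusted p = 0.00429), Rela by 0.53 (adjusted p = 0.0075) and Irf1, an interferon-induced factor, by 0.61 (adjusted p = 0.00771), and Irf8, a factor of myeloid cells, fell by 1.46 (adjusted p = 0.000312). In icariin against CIAKI, 2 of the 14 rose and 5 fell, against 19.2% and 20.2% of all features. Irf8 was higher by 1.27 and Irf1 lower by 0.99 (adjusted p = 0.000697 for Irf8 and 0.000833 for Irf1).

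Taken as a sum, class I heavy chains overlapped between all 3 groups. Summed over the 21 class I rows the level was 351, 283 and 264 CPM in icariin kidneys, 345, 282 and 275 CPM in CIAKI kidneys and 287, 279 and 279.7 CPM in control kidneys. In each group the sums lay between 263.6 and 351 CPM. Of the 16 class I genes tested, CIAKI against control called 2 higher and 1 lower, or 18.8%, against 41.3% of all features, and the median over all 16 was -0.11 on the log2 scale. Icariin against CIAKI called 1 higher and 1 lower, or 12.5%, against 39.4% of all features, and the median over all 16 was 0.21. The class I gene called lower in CIAKI and higher in icariin kidneys was RT1-T24-1. It passed the filter only through icariin and control kidneys, and it is also counted in the calls over all 36 genes.

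RT1-A1 and RT1-A2 are the classical class I genes, which present peptides to CD8 T cells. RT1-A1 stood at 16.0, 14.3 and 15.5 CPM in icariin kidneys, 27.5, 21.9 and 20.7 CPM in CIAKI kidneys and 17.1, 16.8 and 16.2 CPM in control kidneys. RT1-A2 stood at 71.1, 69.4 and 71.9 CPM in icariin kidneys, 86.9, 83.9 and 73.5 CPM in CIAKI kidneys and 53.8, 67.2 and 68.9 CPM in control kidneys. CIAKI kidneys were highest for both without overlap. The sum of RT1-A1 and RT1-A2 was 83.8 to 87.3 CPM in icariin, 94.3 to 114 CPM in CIAKI and 70.9 to 85.1 CPM in control kidneys. Reads shared with other class I rows could still move that sum, and over the 8 RT1-A and RT1-CE rows the groups overlapped. Neither sum was tested. RT1-A1 rose by 0.45 in CIAKI against control (adjusted p = 0.0122) and fell by 0.58 in icariin against CIAKI (adjusted p = 0.00425). RT1-A2 rose by 0.36 in CIAKI against control (adjusted p = 0.0193), a call lost when CIAKI replicate 1, CIAKI replicate 2 or control replicate 1 was left out (adjusted p up to 0.0621), and its -0.20 in icariin against CIAKI was not called (adjusted p = 0.159).

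The remaining class I heavy chains were mostly not called, and the spread within groups was wide for some of them. RT1-T24-1 was the exception, at 3.40, 1.00 and 1.05 CPM in icariin kidneys, 0.685, 0.372 and 0.233 CPM in CIAKI kidneys and 2.64, 1.94 and 2.43 CPM in control kidneys. It passed the filter only through icariin and control kidneys, so a difference was built into its being tested. Its log2 fold changes were -1.23 in CIAKI against control (adjusted p = 0.00934) and 0.89 in icariin against CIAKI (adjusted p = 0.0389), and the second call was lost in 10 of 19 alternatives (adjusted p up to 0.132). Among these were leaving out CIAKI replicate 2 or 3, any control replicate, or icariin replicate 1, without which the value was 0.52. RT1-S3, a nonclassical gene, stood at 50.8, 42.7 and 28.4 CPM in icariin kidneys, 46.8, 23.4 and 18.3 CPM in CIAKI kidneys and 35.9, 34.2 and 32.3 CPM in control kidneys, with all groups overlapping.

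RT1-CE1 stood at 7.98, 8.01 and 4.69 CPM in icariin kidneys, 7.14, 12.5 and 0.916 CPM in CIAKI kidneys and 7.25, 10.6 and 16.6 CPM in control kidneys. All 3 groups overlapped, and the highest CIAKI kidney was 13.7 times the lowest. Its standard error of 0.62 was the largest among the 36 genes, whose median standard error was 0.23. RT1-N2 ranged from 17.5 to 41.2 CPM in icariin kidneys, 18.2 to 51.6 CPM in CIAKI kidneys and 20.1 to 40.6 CPM in control kidneys. RT1-CE4 ran from 18.5 to 32.4 CPM in icariin, 23.7 to 26.4 CPM in CIAKI and 17.6 to 22.4 CPM in control kidneys. Its CIAKI and control kidneys did not overlap, but its log2 fold change of 0.36 was not called (adjusted p = 0.171). RT1-CE5 ran from 21.0 to 32.3 CPM in icariin, 30.9 to 39.0 CPM in CIAKI and 27.0 to 31.8 CPM in control kidneys, and its -0.39 in icariin against CIAKI was not called (adjusted p = 0.0709). The other uncalled class I genes, RT1-CE3, RT1-CE7, RT1-CE10, RT1-N3, RT1-T24-3, RT1-T24-4, RT1-M3-1 and RT1-M6-1, overlapped in every comparison. RT1-M2 and RT1-S2, too low for the test, did not exceed 0.21 and 0.0529 CPM.

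**Figure D3:**
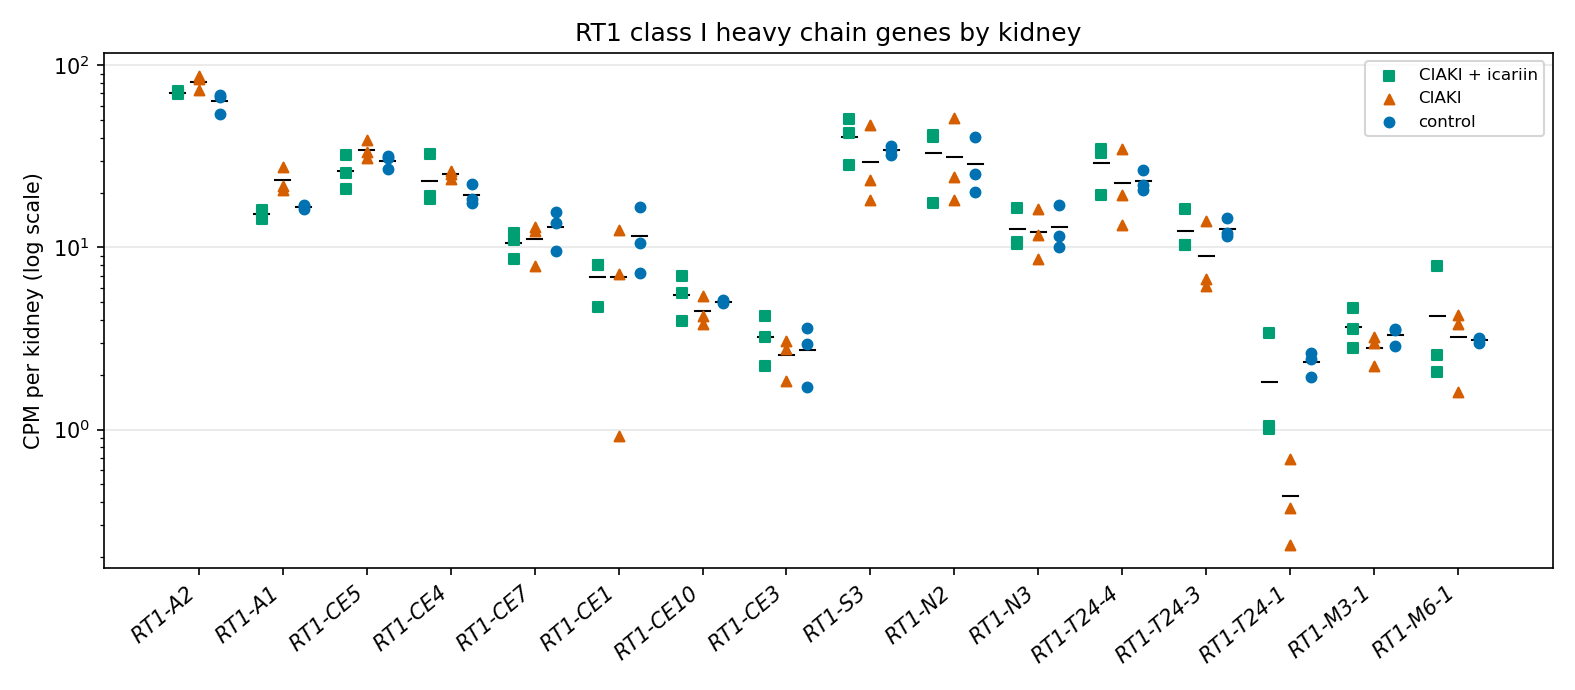
CPM (log axis) of the 16 class I heavy chain genes tested in each kidney, icariin as green squares, CIAKI as orange triangles and control as blue circles, with bars at the group means. RT1-A1 and RT1-A2 are highest in CIAKI kidneys, RT1-T24-1 is lowest there, and 1 CIAKI kidney stands at 0.916 CPM for RT1-CE1.

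B2m, the light chain of every class I molecule, moved against RT1-A1 and RT1-A2. It stood at 352, 370.5 and 356 CPM in icariin kidneys, 289.96, 263 and 289 CPM in CIAKI kidneys and 378, 327 and 333 CPM in control kidneys. It fell by 0.30 in CIAKI against control (adjusted p = 0.0125) and rose by 0.36 in icariin against CIAKI (adjusted p = 0.00592), with no overlap in either. Calhm6, an ion channel gene of the interferon response, was too low for the test, at 0.215 to 0.255 CPM in icariin, 0.0621 to 0.134 CPM in CIAKI and 0.145 to 0.23 CPM in control kidneys.

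The immunoproteasome replaces catalytic subunits of the constitutive proteasome when cells meet interferon, and its genes did not move as one. Psmb8 stood at 7.89, 6.11 and 3.47 CPM in icariin kidneys, 2.86, 3.30 and 1.60 CPM in CIAKI kidneys and 8.91, 6.82 and 7.27 CPM in control kidneys. Psmb9 stood at 5.73, 4.84 and 4.15 CPM in icariin kidneys, 2.72, 2.82 and 1.96 CPM in CIAKI kidneys and 7.002, 6.19 and 5.92 CPM in control kidneys. Both were lowest in CIAKI kidneys without overlap. Psmb8 fell by 1.30 in CIAKI against control (adjusted p = 0.00534) and Psmb9 by 1.08 (adjusted p = 0.000959), and in icariin against CIAKI they rose by 0.90 (adjusted p = 0.0279) and 0.76 (adjusted p = 0.0058). The icariin call of Psmb8 was lost in 5 of 20 alternatives, among them leaving out CIAKI replicate 3 or icariin replicate 1 or 2 (adjusted p up to 0.094).

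Psmb10, the other immunoproteasome subunit, stood at 8.03, 6.45 and 5.71 CPM in icariin kidneys, 9.57, 10.1 and 8.20 CPM in CIAKI kidneys and 7.33, 7.24 and 6.88 CPM in control kidneys. CIAKI kidneys were highest without overlap, with 0.33 in CIAKI against control not called (adjusted p = 0.0905) and a fall of 0.42 in icariin against CIAKI (adjusted p = 0.0426). That call was lost in 9 of 20 alternatives, 7 of them leaving out 1 library (any but CIAKI replicate 3 and icariin replicate 1), with an adjusted p of up to 0.125. The constitutive subunits Psmb5, Psmb6 and Psmb7 rose by 0.53, 0.59 and 0.55 in CIAKI against control (adjusted p = 0.000402, 0.00263 and 0.000731). Within a kidney, Psmb8 over Psmb5 was 0.0507 to 0.108 in icariin, 0.0159 to 0.0335 in CIAKI and 0.0944 to 0.135 in control kidneys, and Psmb9 over Psmb6 was 0.121 to 0.159 in icariin, 0.0375 to 0.0575 in CIAKI and 0.160 to 0.196 in control kidneys. For Psmb10 over Psmb7 all groups overlapped.

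**Figure D4:**
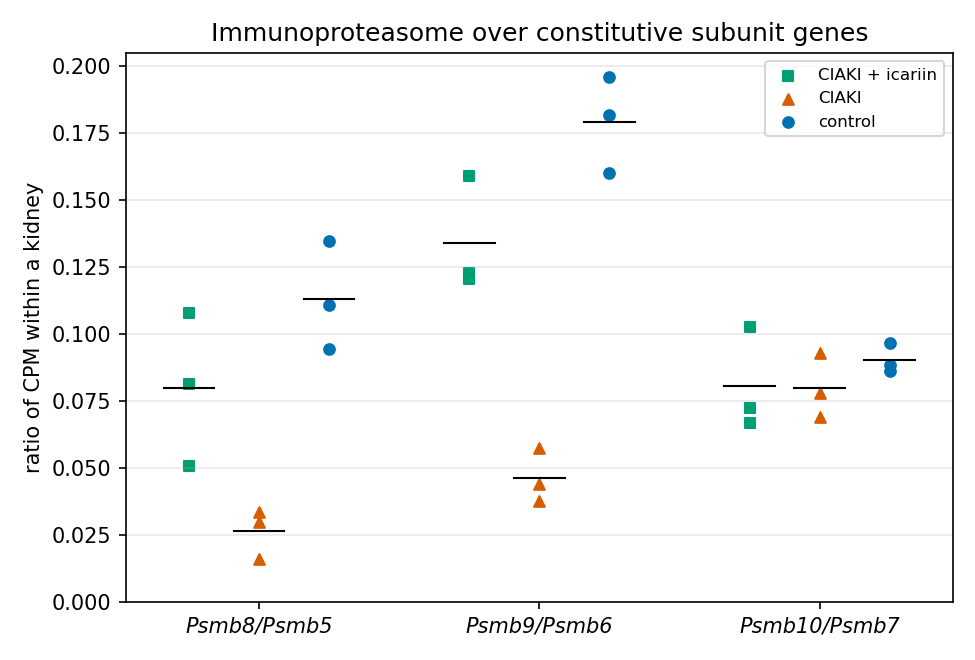
Ratio of CPM of each immunoproteasome subunit gene to its constitutive counterpart within a kidney, icariin as green squares, CIAKI as orange triangles and control as blue circles, with bars at the group means and an axis from 0. Psmb8 over Psmb5 and Psmb9 over Psmb6 are lowest in the 3 CIAKI kidneys, while the groups overlap for Psmb10 over Psmb7.

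Of the genes of peptide transport, trimming and loading, Tapbp alone was called. Tapbp, or tapasin, which bridges class I molecules to the peptide transporter, stood at 63.8, 54.9 and 50.3 CPM in icariin kidneys, 83.0, 83.2 and 70.9 CPM in CIAKI kidneys and 55.2, 53.1 and 54.3 CPM in control kidneys. CIAKI kidneys were highest without overlap, and Tapbp rose by 0.53 in CIAKI against control (adjusted p = 0.00271) and fell by 0.49 in icariin against CIAKI (adjusted p = 0.00458). The transporter genes Tap1 and Tap2 had log2 fold changes of -0.26 (95% interval -0.88 to 0.36) and -0.24 (95% interval -0.65 to 0.17) in CIAKI against control. Tap1 ran from 7.63 to 13.7 CPM in icariin, 7.16 to 16.4 CPM in CIAKI and 12.1 to 13.8 CPM in control kidneys. Its promoter window shares 44 bases with that of Psmb9, at chr20:4668750-4668793. Psmb9 was called and Tap1 was not, and a difference in response between them was not tested. Tapbpl, a tapasin relative, ran from 8.93 to 11.4 CPM in icariin, 8.74 to 11.7 CPM in CIAKI and 8.47 to 9.85 CPM in control kidneys and was not called.

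Psme1, a subunit of the proteasome activator PA28, stood at 81.4, 73.1 and 76.9 CPM in icariin kidneys, 79.9, 76.6 and 76.9 CPM in CIAKI kidneys and 71.1, 79.9 and 67.8 CPM in control kidneys. Erap1, which trims peptides in the endoplasmic reticulum, stood at 71.9, 76.5 and 68.5 CPM in icariin kidneys, 77.1, 74.0 and 81.2 CPM in CIAKI kidneys and 77.9, 69.3 and 79.7 CPM in control kidneys. Neither was called, and their 95% intervals in CIAKI against control ran from -0.08 to 0.27 for Psme1 and from -0.14 to 0.21 for Erap1. Of 16 other listed genes of the class I pathway, 8 rose and 0 fell in CIAKI against control, with a median of 0.35. Among all features 20.8% rose and 20.5% fell. In icariin against CIAKI 0 rose and 7 fell, with a median of -0.24, against 19.2% and 20.2% of all features. In CIAKI against control, single genes called were as follows. Cnih4, a cargo receptor, rose by 1.11 (adjusted p = 5.13e-05) and Npepps, a cytosolic aminopeptidase, by 0.47 (adjusted p = 0.000521).

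Genes of class II antigen processing outside the MHC moved in both directions. Of 11 listed genes tested, 3 rose and 3 fell in CIAKI against control, with a median of 0.014. Among all features 20.8% rose and 20.5% fell. One that fell, Cd40, was under 1 CPM in every CIAKI kidney, so its being tested rested on the other groups. The proteases Ctsd and Ctsl rose by 0.77 (adjusted p = 0.000211) and 0.86 (adjusted p = 0.00235), the thiol reductase Ifi30 rose by 0.56 (adjusted p = 0.00161) and the protease Ctsh fell by 1.15 (adjusted p = 0.000339). In icariin against CIAKI 1 of the 11 rose and 3 fell, with a median of -0.26, against 19.2% and 20.2% of all features. Of 5 tested class I-like genes, 2 rose and 0 fell in CIAKI against control, against 20.8% and 20.5% of all features. The protein C receptor Procr rose by 1.59 (adjusted p = 0.000409) and Fcgrt by 0.24 (adjusted p = 0.0292).

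Genes of the response to interferon-gamma, the best known inducer of Ciita, also moved in both directions. In CIAKI against control 2 of 14 were higher and 4 lower, with a median of -0.06. Of all features 20.8% were higher and 20.5% lower, so the share called was near the background and is not a result about this list. Cxcl9, which passed the filter only through control kidneys, fell by 1.20 (adjusted p = 0.000542) and Gbp2 by 1.08 (adjusted p = 0.0182), whereas Cxcl10 rose by 2.36 (adjusted p = 0.00935) and Jak1 by 0.30 (adjusted p = 0.0145). In icariin against CIAKI 1 rose and 4 fell, against 19.2% higher and 20.2% lower among all features. Jak2 fell by 0.38 (adjusted p = 0.00443), Cxcl10 by 2.78 (adjusted p = 0.00467) and Ifngr2 by 0.49 (adjusted p = 0.0109). Cxcl9 was higher by 0.62 (adjusted p = 0.0136), but it was under 1 CPM in every kidney of both groups. Ifng itself was above 0 in 1 of 9 libraries, an icariin one, at 0.0221 CPM.

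Some markers of the cells that carry class II molecules moved in the direction of the class II genes. Of 12 tested macrophage markers, 1 rose and 5 fell in CIAKI against control, with a median of -0.18. Among all features 20.8% rose and 20.5% fell. Cd163, which did not pass the filter, went the other way. It stood at 0.31 to 0.892 CPM in icariin, 0.901 to 2.45 CPM in CIAKI and 0.144 to 0.529 CPM in control kidneys. The sum of all 13 listed was 121 to 163 CPM in icariin, 84.3 to 136 CPM in CIAKI and 145 to 151 CPM in control kidneys. Csf1r, the macrophage growth factor receptor, fell by 0.96 (adjusted p = 0.000287) and Adgre1, or F4/80, by 1.84 (adjusted p = 0.000185), while Mrc1 rose by 0.95 (adjusted p = 0.0123). Of 7 tested dendritic cell markers, 0 rose and 2 fell, with a median of -0.26, against the same shares of all features. The sum of all 11 listed was 30.5 to 34.9 CPM in icariin, 20.3 to 31.4 CPM in CIAKI and 32.8 to 37.2 CPM in control kidneys. Xcr1, of cross-presenting dendritic cells, fell by 0.85 (adjusted p = 0.00872), but it was under 1 CPM in every CIAKI kidney and passed the filter only through the other groups. Cd209 was at 0 in every kidney of all 3 groups.

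Of 12 listed T and NK cell markers 6 were tested, and 5 of these (Cd3e, Cd8a, Lck, Nkg7 and Ptprcap) were under 1 CPM in every CIAKI kidney. Their being tested rested on the other groups, so a count of calls over the list is not informative. Cd4, the remaining one, which macrophages of the rat also express, fell by 1.32 in CIAKI against control (adjusted p = 0.0028) and rose by 1.12 in icariin against CIAKI (adjusted p = 0.00663). Over all 12 listed, with no filter, the sum was 16.6 to 27.2 CPM in icariin, 6.73 to 10.1 CPM in CIAKI and 29.9 to 33.2 CPM in control kidneys. B cell markers were too low for the test, with sums of 0.552 to 0.821 CPM in icariin, 0.149 to 0.435 CPM in CIAKI and 0.965 to 1.32 CPM in control kidneys, and Ms4a1 at 0 in every CIAKI kidney. Of 9 endothelial markers, 1 rose and 4 fell in CIAKI against control, with a median of -0.20. Among all features 20.8% rose and 20.5% fell. Ehd3, of glomerular endothelium, fell by 0.98 (adjusted p = 5.13e-05), Tie1 by 1.155 (adjusted p = 0.000391) and Kdr by 0.88 (adjusted p = 0.000688). The receptor gene Flt1 rose by 0.61 (adjusted p = 0.000433). The sum of the 9 was 643 to 793 CPM in icariin, 537 to 611 CPM in CIAKI and 640.3 to 691 CPM in control kidneys. In icariin against CIAKI, 5 of 12 macrophage markers rose and 1 fell, and 1 of 7 dendritic cell markers, Xcr1, rose. Among all features 19.2% rose and 20.2% fell.

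The class II sum relative to these markers depended on the marker. Over the macrophage and dendritic cell marker sum it was 0.892 to 1.51 in icariin, 0.578 to 0.757 in CIAKI and 1.07 to 1.39 in control kidneys, with CIAKI kidneys lowest. Over Csf1r alone it was 3.44 to 5.28 in icariin, 3.03 to 4.17 in CIAKI and 3.91 to 5.21 in control kidneys, and the groups overlapped. Over Adgre1 it was 12.3 to 19.5 in icariin, 18.9 to 23.6 in CIAKI and 9.67 to 15.0 in control kidneys, with CIAKI kidneys above the controls and overlapping the icariin kidneys. Over Irf8 it was 10.6 to 15.4 in icariin, 12.2 to 22.1 in CIAKI and 10.7 to 14.8 in control kidneys. Over the endothelial marker Kdr it was 1.34 to 1.71 in icariin, 0.726 to 1.57 in CIAKI and 1.25 to 1.73 in control kidneys. The groups overlapped for Irf8 and for Kdr. These marker ratios were chosen after the values were seen, and the part of cell numbers in the class II result was not tested.

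**Figure D5:**
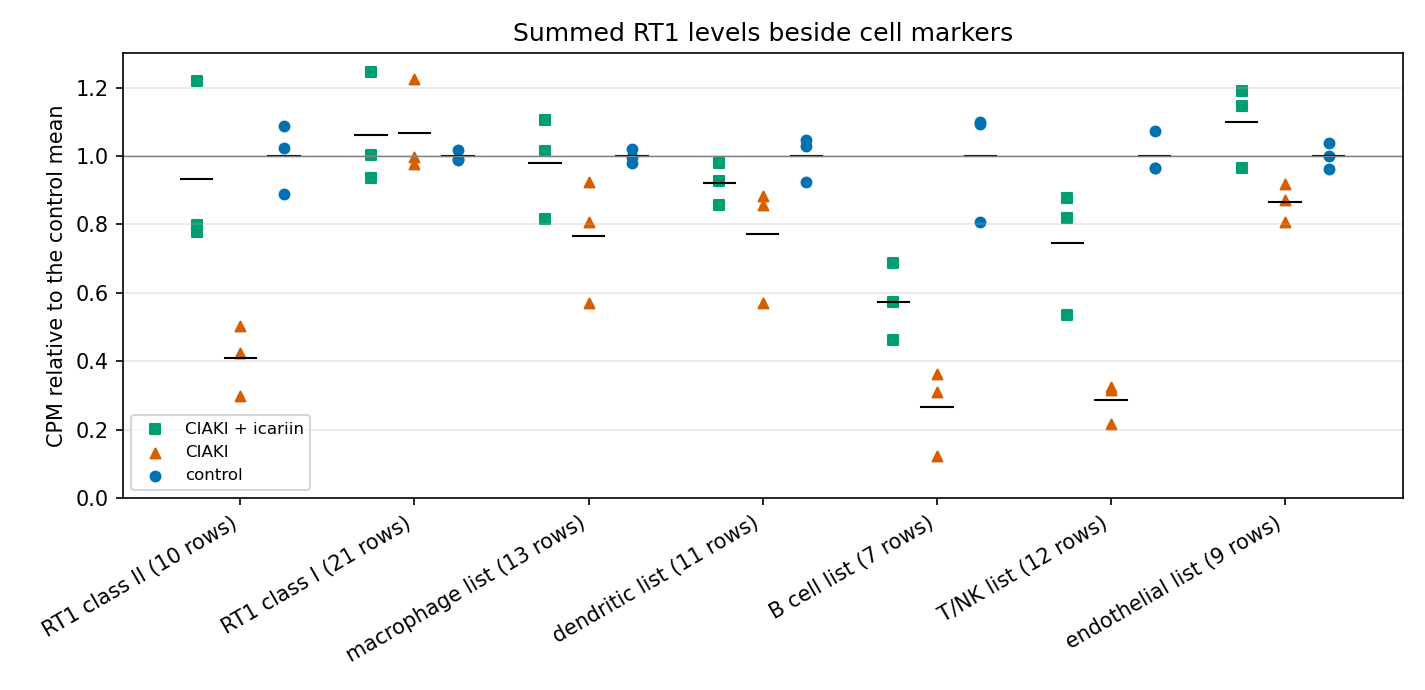
CPM of the summed RT1 class II and class I rows and of 5 summed cell marker lists in each kidney, relative to the control mean, with the rows in each sum in brackets. Icariin kidneys are green squares, CIAKI kidneys orange triangles and control kidneys blue circles, with bars at the group means. CIAKI kidneys lie lowest without overlap for class II and for the B cell, T/NK and endothelial lists, while class I overlaps.

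Levels can be compared between genes only per length, and FPKM values were at hand for 12 of the 41 genes in the authors' deposited table of selected mRNAs, which covers icariin and CIAKI kidneys. In that table Cd74 averaged 215 ± 52.5 FPKM in icariin and 102 ± 26.4 FPKM in CIAKI kidneys (SD, n = 3 each). In the authors' deposited table RT1-Da averaged 73.0 ± 17.8 FPKM in icariin and 29.0 ± 6.54 FPKM in CIAKI kidneys, and Ciita 1.40 ± 0.321 FPKM in icariin and 0.491 ± 0.152 FPKM in CIAKI kidneys. Per length, Cd74 was thus the most abundant of the 12 and RT1-Da came second in icariin and in CIAKI kidneys, and the genes in that table were selected by the authors, so it is not independent of the comparison.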

How the data were processed

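Total RNA of 9 kidneys was extracted with Trizol and libraries were built with a TruSeq kit of Illumina, per the labels' protocols. Each group had 3 rats, per the series design. The submitters' processing notes name Bowtie 0.12.2 and build mm8, a mouse build, while the identifiers are rat genes. No source used here gives the read counter, its strand setting or the annotation, so overlapping antisense transcripts cannot be told apart. The authors deposited the gene table in CPM, with every library summing to 1000000. Dividing by the value of 1 read gave whole reads for 100% of values, with a tolerance of 0.1. These matched each of the 23850 counts compared in the authors' deposited table of selected mRNAs, which also holds FPKM, per the file headers.

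A filter of 1 CPM in 3 or more libraries left 16731 features, which were fitted with limma 3.58.1 (intensity trend, log2(CPM + 1), group as the factor, all 9 libraries), two-sided, with Benjamini-Hochberg adjustment over all features and calls below 0.05. edgeR 4.0.16 and DESeq2 1.42.0 were run on recovered reads as alternatives, beside other pseudocounts, filters, scalings, a replicate block and leaving out each library. The members, gene lists and tests were chosen with earlier results of these data known. Values per library are given for members called with a mean of at least 1 CPM, the 3 highest per role, and Ciita, Nlrc5, B2m, Cd74 and Calhm6. From each gene list at most 4 called genes are named by smallest p. RT1-DMa, RT1-CE1, RT1-N2, Tap1, Tap2, Psmb6, Mrc1, Cd163, Cd4, Cd40, Cd209, Ms4a1 and Ifng were named after their values were seen. The deposited circRNA, lncRNA and miRNA tables were not used.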

Additional observations from a re-analysis of the deposited data

How the results depend on the processing

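No called value changed sign under any alternative run. Members called numbered 14 to 18 in CIAKI against control (reported: 16), 12 to 17 in icariin against CIAKI (reported: 15) and 0 in icariin against control, over all alternatives. Members called lower in icariin against CIAKI numbered 2 to 5 when 1 library was left out (reported: 3), with 5 without icariin replicate 1, when RT1-CE4 and RT1-CE5 were added. Across all features, icariin against control called 105 by limma and 523 by DESeq2, and 31 to 127 when 1 library was left out. The filter of 1 CPM in 3 libraries left 36 of the 41 members. The cause of these differences was not tested. Same-numbered libraries did not deviate together (correlations of -0.035 to 0.081). No pairing by replicate number was visible, but such correlations cannot show whether the rats were matched. With the replicate block 16, 17 and 0 members were called, and 6678, 6314 and 73 features, in CIAKI against control, icariin against CIAKI and icariin against control. Applying TMM, upper-quartile or quantile scaling moved the median of all features by at most 0.047 on the log2 scale. With 3 rats a group, a gene that was not called may still differ within its interval.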
